A study of Arabidopsis thaliana with 208 samples.

Results

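SALK_015182 is an Arabidopsis thaliana line that carries a T-DNA insertion, a stretch of bacterial DNA placed in the plant genome, and its roots held little transcript of AT5G61590, the gene of the transcription factor DEWAX. Its libraries from 1 mM KNO3 were chosen by the line and the concentration on their labels, which gave 8 of the 208 deposited samples, that is 4 libraries each read in 2 runs. They were compared with the 4 libraries of the wild type Col at 1 mM KNO3. As a second set to compare with, the 28 libraries of the other 7 SALK lines at 1 mM KNO3 were used, 4 each of SALK_146141, SALK_100002, SALK_094437C, SALK_085964C, SALK_070847C, SALK_035980 and SALK_012253. The line and Col at 10 mM KNO3, with 4 libraries each, are given beside single genes.

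The series measured transcripts in roots 9 days old, in Col and 12 insertion lines at 1 or 10 mM KNO3, on a medium that holds KCl and sucrose in every group. A biological replicate combined the seedlings of 2 plates. Libraries followed the BRAD-seq protocol for digital gene expression, which places its reads near the 3′ end of a transcript. The labels give the name of each line; they give neither the gene or position of an insertion, nor its number, nor whether the plants were homozygous, and the line is 1 stock.

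Transcription factors of the AP2/ERF family bind short motifs in promoters, and DEWAX is described in Arabidopsis stems and leaves as a repressor of genes of cuticular wax synthesis that rises in the dark. Wax is made in the epidermis from very-long-chain fatty acids: elongase complexes lengthen the chain, CER1 and CER3 turn it into alkanes, CER4 makes alcohols, and ABC transporters and lipid transfer proteins carry the products out of the cell. Roots use the same long acyl chains for suberin, the polyester laid down in the endodermis.

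With both sequencing runs of a library summed, the SALK_015182 libraries held 7764924 to 12765164 counts and the Col libraries 6629042 to 11439440, against 5007665 to 11967818 in the other 7 SALK lines. A count was found at 21474 to 22094 nuclear loci in SALK_015182 and at 21338 to 21896 in Col. Log2 levels of pairs of libraries correlated across genes, which are not replicates, with r of 0.98 to 0.985 within SALK_015182, 0.969 to 0.979 within Col and 0.969 to 0.985 between them, so the ranges overlapped. Levels are given in CPM, the read count of a gene over that of its library on a common scale, adjusted between libraries by TMM factors, and a gene is said to be called, or to have risen or fallen, where the quasi-likelihood test of edgeR gave a Benjamini-Hochberg adjusted p under 0.05 over the 19664 genes tested. Log2 changes are SALK_015182 minus Col unless the other SALK lines are named.

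AT5G61590 was nearly silent in SALK_015182. Its level in the 4 libraries was 2.63, 1.87, 3.06 and 2.99 CPM, against 68.9, 57.7, 46.0 and 40.7 CPM in Col. The groups were far apart: the highest SALK_015182 library was below each of the other 48 libraries at 1 mM, and the 28 libraries of the other SALK lines lay between 35.0 and 67.2 CPM with a median of 49.3. The means were 2.64 ± 0.544 CPM in SALK_015182 and 53.3 ± 12.6 CPM in Col (SD, n = 4 each), which is 4.94% of the level in Col. The log2 change was -4.36 ± 0.22 (SE; 95% interval -4.79 to -3.93), a 20.5-fold lower level, at an edgeR adjusted p of 1.82e-30. Against the other 7 SALK lines it was -4.27 ± 0.20, at an edgeR adjusted p of 7.28e-33. An exact two-sided permutation test of the 4 against 4 libraries gave p = 0.02857, the smallest that the 70 splits allow. Any gene whose groups do not overlap gives this p, and 2.01% of the genes tested had all SALK_015182 libraries below all Col libraries. The gene was chosen with earlier results of these data known, and the permutation p is not adjusted for that choice. The transcript was not at 0, since the 4 libraries held 97 counts together, against 1925 in Col. A tag near the 3′ end shows neither where a transcript starts nor whether a working protein was made.

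**Figure D1:**
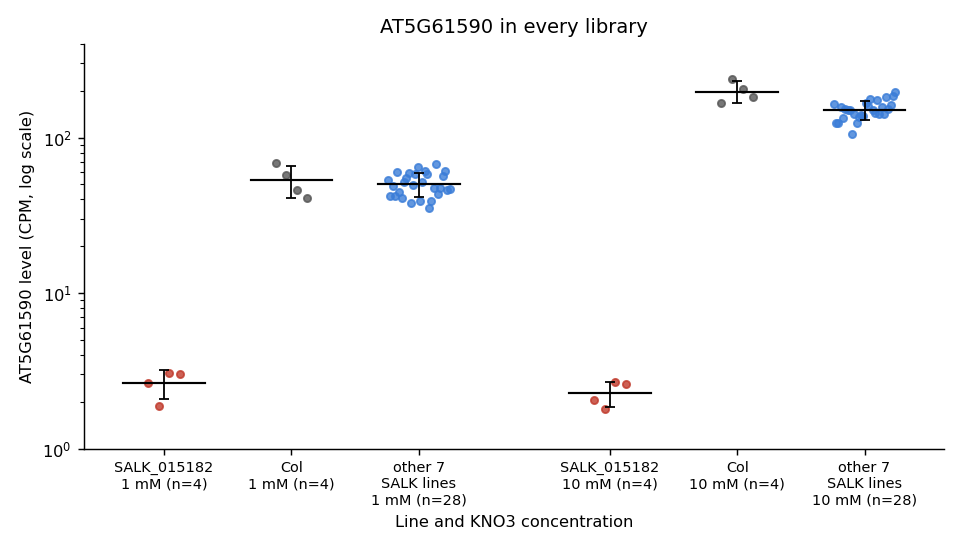
Level of AT5G61590 in CPM on a log axis for each library, by line and KNO3 concentration, with the mean as a black line and the SD as a bar (n = 4, or 28 for the other 7 SALK lines). The 4 SALK_015182 libraries at 1 mM sit between 1.87 and 3.06 CPM, below every Col library at 1 mM, of which the lowest is at 40.7 CPM.

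At 10 mM KNO3 the gene stood at 2.06, 1.8, 2.66 and 2.59 CPM in SALK_015182, against 166, 239, 205 and 181 CPM in Col. The mean in SALK_015182 was 2.64 CPM at 1 mM and 2.28 CPM at 10 mM, and the libraries of both concentrations overlapped, while the mean in Col was 53.3 CPM at 1 mM and 198 CPM at 10 mM. The log2 change at 10 mM was -6.42 ± 0.23 (edgeR adjusted p of 1.69e-41), where the level was 1.15% of that in Col. The difference between the change at 1 mM and the change at 10 mM was itself called, at 2.06 ± 0.32 log2 units (edgeR adjusted p of 0.000181).

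No tested locus next to AT5G61590 was called. Of the 5 loci on each side in the annotation order, 6 had enough counts to be tested and 0 were called. ERF104, the next locus and another AP2/ERF gene with a role in defence signalling, had 20.7, 25.03, 17.57 and 22.9 CPM in SALK_015182, against 32.4, 20.7, 19.99 and 13.7 CPM in Col. These groups overlapped, and the log2 change was 0.01 with a 95% interval of -0.41 to 0.43. On the other side, the phosphofructokinase gene PFK4 had a log2 change of 0.18, the protein kinase gene AT5G61570 of -0.14, and the U-box kinase genes AT5G61560 and AT5G61550 of -0.17 and -0.31. AT5G61540, of an aminohydrolase family, was at -0.07. AT5G61605 and AT5G61610 had 0 counts in both groups, AT5G61620 had 12 counts in SALK_015182 and 10 in Col, and AT5G61630 had 1 in each, too few to test.

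None of the genes that DEWAX is reported to repress in shoots was called in SALK_015182 roots. CER1, which makes alkanes of wax, was near the detection limit of both, with 1.19, 0.702, 1.15 and 0.887 CPM in SALK_015182 and 0.751, 1.56, 0.858 and 0.731 CPM in Col. LACS2, an acyl-CoA synthetase used for cutin and wax, had 30.6, 35.3, 33.1 and 37.4 CPM in SALK_015182, against 35.1, 45.1, 31.5 and 40.9 CPM in Col. ACLA-2, a subunit of the citrate lyase that supplies acetyl-CoA, had 38.8, 38.1, 40.0 and 35.7 CPM in SALK_015182, against 38.1, 39.3, 23.8 and 33.2 CPM in Col. The groups overlapped for each of these genes. CER10, the last enzyme of the elongation cycle, had 71.7, 67.4, 78.2 and 64.4 CPM in SALK_015182, against 73.9, 56.1, 81.6 and 79.5 CPM in Col, which overlapped as well. The log2 changes were -0.08 for CER1 (95% interval -0.83 to 0.67), -0.17 for LACS2 (-0.50 to 0.17), 0.18 for ACLA-2 (-0.09 to 0.45) and -0.05 for CER10 (-0.27 to 0.18). The intervals of these 4 genes exclude a 2-fold change in either direction, with the least room for CER1. FAR6, which makes fatty alcohols, had 4 counts in the SALK_015182 libraries together and 0 in those of Col, and was not tested.

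**Figure D2:**
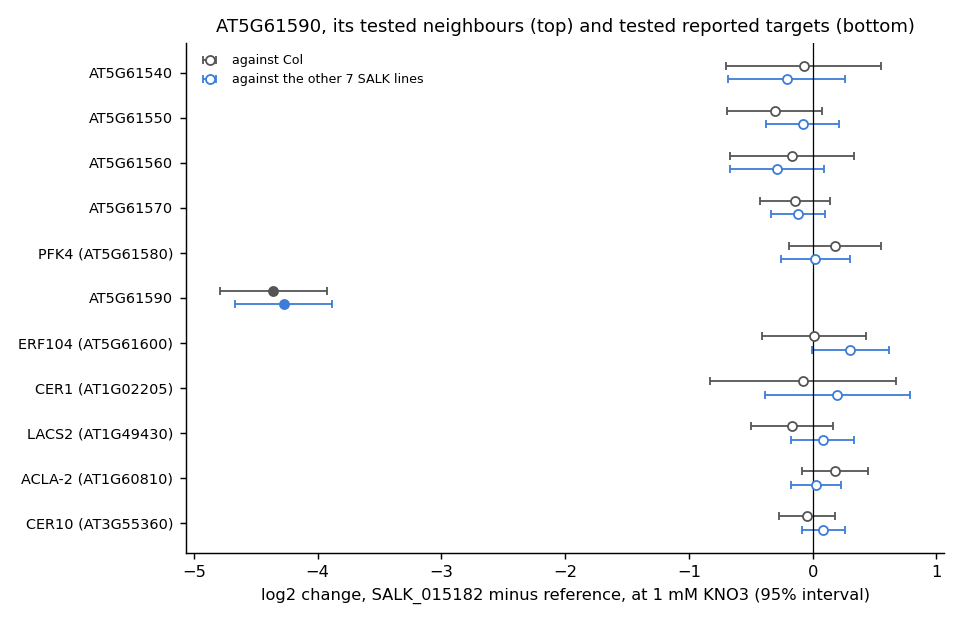
Log2 change of SALK_015182 at 1 mM against Col and against the other 7 SALK lines, with 95% intervals, for AT5G61590, its tested neighbours and the reported DEWAX targets; filled points passed the test. Only AT5G61590, at -4.36 against Col, is filled, and every other interval drawn against Col reaches 0.

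Over all genes, 11 of 19664 were called against Col (0.0559%), of which 9 rose (0.0458%) and 2 fell (0.0102%). An unadjusted p under 0.05 was found for 1512 genes (7.69%). Of the 11 called genes 6 changed at least 2-fold. The 4 SALK_015182 libraries lay above all 4 Col libraries at 391 genes (1.99%) and below them at 395 (2.01%). The number depended on a grouping of the libraries: titles carry a number after the letters "str", which the labels do not explain and which has 13 values over the series, and with that number as a covariate 159 genes were called, 102 higher and 57 lower, among them all 11. The SALK_015182 replicates 1 to 4 have the numbers 1, 3, 8 and 9 and the Col replicates 1, 2, 7 and 9, so that the numbers 1 and 9 each hold 1 library of both. In those 4 libraries alone 3 genes were called: AT5G61590, AT3G25150 and AT5G35935.

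The second fall was that of AT5G11330, annotated as a FAD/NAD(P)-binding oxidoreductase. It had 20.9, 21.4, 20.8 and 18.3 CPM in SALK_015182, against 36.0, 29.4, 39.0 and 41.3 CPM in Col. Every SALK_015182 library was below every Col library and below every library of the other 7 SALK lines, which ran from 26.8 to 46.7 CPM with a median of 34.6. The means were 20.3 ± 1.38 CPM in SALK_015182 and 36.4 ± 5.18 CPM in Col (SD, n = 4 each), which is 55.8% of the level in Col. The log2 change was -0.84 ± 0.13 (SE; 95% interval -1.09 to -0.59) at an edgeR adjusted p of 8.86e-06, and against the other 7 SALK lines it was -0.77 ± 0.10 (edgeR adjusted p of 2.18e-07).

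AT5G11330 was also low in the SALK_015182 libraries at 10 mM, which share the model's estimate of spread with those at 1 mM. There SALK_015182 had 22.5, 23.5, 16.5 and 18.7 CPM, against 40.8, 40.7, 44.1 and 31.4 CPM in Col, without overlap. The log2 change at 10 mM was -0.95 ± 0.13 (edgeR adjusted p of 2.04e-07). None of the other 96 libraries of the series lay at or below the highest of the 8 SALK_015182 libraries, and the means of the other 11 insertion lines at 1 mM ran from 31.8 to 38.8 CPM. In the libraries with the numbers 1 and 9 alone, the log2 change was -0.98 and the call was lost (edgeR adjusted p of 0.449).

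AT5G61590 and AT5G11330 were the only 2 of 19664 genes (0.0102%) whose 4 SALK_015182 libraries all lay below the 32 libraries of Col and the other SALK lines, and 0 genes lay above all 32. They were also the 2 genes called in the same direction against both Col and the other SALK lines, which became 4 with the "str" number as a covariate, where AT3G29430 and AT3G29410 were called as well. For scale, the 4 libraries of SALK_146141 lay below all others of the same set at 15 genes, those of Col at 4 and those of SALK_100002 at 0. Both genes lie on chromosome 5, as do 5 of the 11 called genes and 23.3% of the genes tested.

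The genes that rose against Col were mostly at the level of the other SALK lines. The 9 rises were between 0.43 and 1.91 log2 units against Col, and for 6 of them the estimate against the other 7 SALK lines was under 0.15. The comparisons share the SALK_015182 libraries, so the values are given side by side.

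The largest rise was that of AT5G35935, annotated as a pseudogene. It had 11.2, 12.3, 9.42 and 10.31 CPM in SALK_015182, against 3.004, 3.46, 2.45 and 2.51 CPM in Col, without overlap. The log2 change was 1.91 ± 0.24, a 3.76-fold higher level, at an edgeR adjusted p of 4.13e-08, and the same gene was 2.3 higher on the log2 scale at 10 mM (edgeR adjusted p of 8.77e-12). Against the other 7 SALK lines, whose libraries had a median of 10.2 CPM, the log2 change was 0.13. The level varied more widely among the lines that are not of the SALK collection, with means at 1 mM of 0.311 CPM in GABI_699B09, 0.320 in SAIL_1207_H04, 2.07 in GABI_513E07 and 3.52 in GABI_868_E02. These means lay on both sides of Col, which had 2.86 CPM.

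AT3G25150, which encodes a protein with NTF2 and RNA-binding domains, had 66.1, 77.5, 67.6 and 59.4 CPM in SALK_015182, against 25.2, 18.8, 22.1 and 25.3 CPM in Col. The groups did not overlap, and the log2 change was 1.57 ± 0.17, a 2.97-fold higher level, at an edgeR adjusted p of 6.08e-11. Set against the other SALK lines, with a median of 68.0 CPM, it was -0.02. Col had the lowest level of all 13 lines: its mean was 22.8 ± 3.09 CPM, and those of the other 11 insertion lines were between 59.8 and 73.5 CPM. The locus overlaps its neighbour AT3G25140, and without a stated strand setting the counts of the pair cannot be told apart.

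AT5G35170, of an adenylate kinase family, had 21.5, 19.3, 16.8 and 19.5 CPM in SALK_015182, against 9.76, 10.54, 11.04 and 13.2 CPM in Col (log2 change 0.79 ± 0.15, edgeR adjusted p of 0.00354). AT1G52600, of a family of signal peptidases, had 79.1, 79.0, 74.7 and 71.8 CPM in SALK_015182, against 63.1, 50.6, 39.5 and 50.2 CPM in Col (log2 change 0.59 ± 0.11, edgeR adjusted p of 0.00284). Neither gene had overlapping groups. The GABI and SAIL lines were also above Col at 1 mM, by 0.50 to 0.68 log2 units for AT5G35170 and 0.53 to 0.58 for AT1G52600. Against the other 7 SALK lines the log2 changes were 0.08 for AT5G35170 and 0.01 for AT1G52600, and at 10 mM against Col they were 0.22 and 0.07, without a call. Each call at 1 mM was lost in 4 of 19 alternatives, that of AT5G35170 in either run alone (edgeR adjusted p of 0.339 and 0.355) and that of AT1G52600 in run 1 (0.657) and without Col replicate 3 (0.194).

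A further pair of abundant genes stood closer to the threshold. AT1G18980, of the cupin family of storage and germin-like proteins, had 81.7, 111, 89.0 and 98.7 CPM in SALK_015182, against 46.4, 65.3, 51.9 and 47.8 CPM in Col (log2 change 0.85 ± 0.18, edgeR adjusted p of 0.0231). AT1G64880, of the ribosomal protein S5 family, had 157, 130, 139 and 137 CPM in SALK_015182, against 114, 105, 97.4 and 103.7 CPM in Col (log2 change 0.43 ± 0.09, edgeR adjusted p of 0.0238). The groups did not overlap for either gene, but the calls were lost in 9 of 19 alternatives for AT1G18980 and in 12 of 19 for AT1G64880. Relative to the other 7 SALK lines the log2 changes were 0.06 for AT1G18980 and 0.05 for AT1G64880. The GABI and SAIL lines were above Col at 1 mM as well, by 0.55 to 0.94 log2 units for AT1G18980 and 0.29 to 0.38 for AT1G64880.

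The other 3 rises were those of genes with a mean under 5 CPM in both groups, named here after their values were seen. AT4G38410, a dehydrin gene of the kind induced by water loss, had 6.21, 5.46, 3.31 and 3.55 CPM in SALK_015182, against 2.70, 2.14, 1.23 and 1.67 CPM in Col (log2 change 1.28, edgeR adjusted p of 0.00934). AT3G29120, a pseudogene, had 2.63, 1.64, 1.78 and 2.11 CPM in SALK_015182, against 0.601, 0.741, 0.981 and 0.104 CPM in Col (log2 change 1.72, edgeR adjusted p of 0.0144). These groups did not overlap, and the log2 changes against the other 7 SALK lines were 0.41 for AT4G38410 and 0.64 for AT3G29120, neither of them called. For AT3G29120, SALK_070847C alone was at -2.34 against Col, and 6 of the 7 other SALK lines had an estimate above 0. The 28 libraries of these 7 lines had a median of 1.83 CPM, within the range of SALK_015182. The calls against Col were lost in 8 of 19 alternatives for AT4G38410 and in 6 of 19 for AT3G29120, for both of them without SALK_015182 replicate 1 (edgeR adjusted p of 0.163 and 0.153) and without Col replicate 4 (0.13 and 0.283).

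AT5G61412, the only called gene near AT5G61590, had 4.18, 3.12, 4.71 and 2.22 CPM in SALK_015182, against 2.85, 0.576, 0.613 and 0.731 CPM in Col. Replicate 1 of Col lay within the range of SALK_015182, and the other 3 Col libraries lay below it. The log2 change was 1.69 (edgeR adjusted p of 0.0172), and the call was lost in 10 of 19 alternatives, among them those without Col replicate 2 (0.2835), 3 (0.2489) or 4 (0.1534) and without SALK_015182 replicate 1 (0.1262) or 3 (0.17). Without Col replicate 1 the log2 change was 2.43 (edgeR adjusted p of 6.23e-05). Relative to the other 7 SALK lines it was 0.96 (edgeR adjusted p of 0.204). Between this locus and AT5G61590 lie 20 loci, of which 16 were tested and 0 called, with log2 changes against Col of -0.56 to 0.18.

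**Figure D3:**
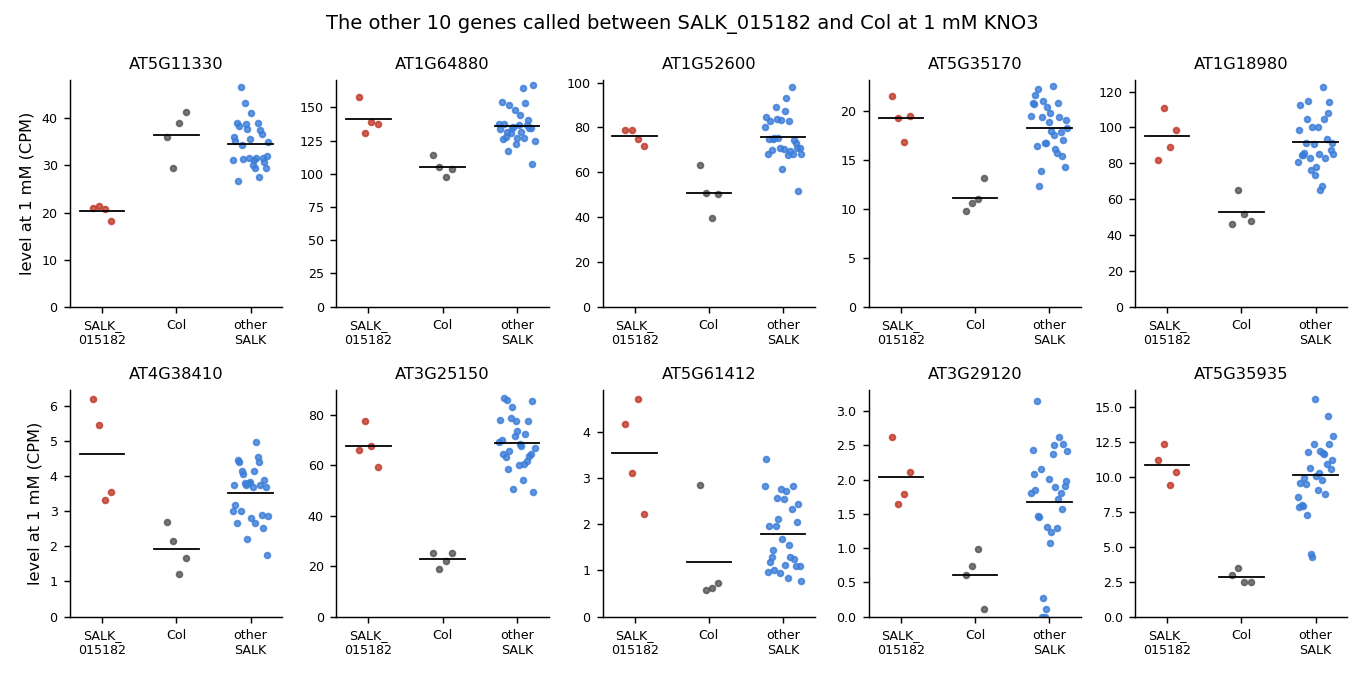
Level in CPM of the other 10 genes called at 1 mM against Col, with a point for each library and the mean as a line, for the libraries of SALK_015182, of Col and of the other 7 SALK lines. For AT5G11330 the SALK_015182 points, at most 21.4 CPM, lie below both other sets, and for AT3G25150 they lie among those of the other SALK lines, whose median is 68.0 CPM.

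Each of the 11 genes had the same sign against Col at 10 mM, and 5 were called there: AT5G61590, AT5G11330, AT5G35935, AT3G25150 and AT1G18980, the last at 0.89 (edgeR adjusted p of 0.024). In all, 26 genes (0.132%) were called at 10 mM, 7 higher (0.0356%) and 19 lower (0.0966%), and 1830 had an unadjusted p under 0.05 (9.31%). The levels at the 2 concentrations come from separate libraries, but of the same 2 stocks and tested with 1 shared estimate of spread. The difference between the changes at 1 and 10 mM was called for 2 genes (0.0102%), with 1293 at an unadjusted p under 0.05 (6.58%). One was AT5G61590 and the other AT5G49840, annotated as an ATPase of the Clp protease family, which overlaps the locus AT5G49850. At 1 mM it had 16.2, 18.5, 19.4 and 18.2 CPM in SALK_015182, against 13.2, 12.8, 10.55 and 11.7 CPM in Col. At 10 mM it had 19.8, 17.58, 11.5 and 18.8 CPM in SALK_015182, against 22.7, 22.6, 23.6 and 19.4 CPM in Col. The log2 change was thus of opposite sign at the 2 concentrations, at 0.58 at 1 mM and -0.39 at 10 mM. Neither of these changes was called alone, and the groups overlapped at 10 mM. Against the other 7 SALK lines at 1 mM, whose libraries had a median of 17.8 CPM, the log2 change was 0.06 and not called. The difference between the changes against Col was 0.97 ± 0.19 (edgeR adjusted p of 0.0207), a call that held in 11 of 20 alternatives.

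Against the other 7 SALK lines 5 genes were called (0.0254%), and 400 had an unadjusted p under 0.05 (2.03%). Besides the 2 falls (0.0102%), 3 genes were higher (0.0153%), and none of the 3 was called against Col. AT1G76510, an ARID-domain gene from the list of nitrogen network regulators, had 14.6, 11.2, 12.4 and 10.98 CPM in SALK_015182, against a range of 0.430 to 14.7 CPM with a median of 10.39 in the other SALK lines. The log2 change was 0.77 (edgeR adjusted p of 6.47e-07), but SALK_035980 alone was at 0.610 ± 0.154 CPM, and without that line the log2 change was 0.18 and not called. Col had 11.6, 12.2, 12.3 and 16.6 CPM, which overlapped SALK_015182.

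The cytochrome P450 gene AT5G08250 had 15.7, 20.5, 17.8 and 15.5 CPM in SALK_015182, against a range of 5.85 to 16.7 CPM with a median of 9.53 in the other SALK lines (log2 change 0.80, edgeR adjusted p of 4.37e-05). Col, at 19.1, 17.2, 23.7 and 18.6 CPM, was as high as SALK_015182. The other SALK lines were spread, with means from 6.78 CPM in SALK_012253 up to 15.4. The terpenoid synthase gene AT3G29430 had 5.85, 5.38, 1.91 and 2.11 CPM in SALK_015182, against a range of 0.559 to 3.41 CPM with a median of 1.61 in the other SALK lines (log2 change 1.32 ± 0.28, edgeR adjusted p of 0.0407). Replicates 1 and 2 were above all 28 of those libraries and replicates 3 and 4 among them, and the call was lost in 10 of 21 alternatives. Among these were the comparisons without SALK_015182 replicate 1 or 2, with limma-voom (adjusted p of 0.141), from run 2, against all 11 other insertion lines, and without SALK_035980, SALK_085964C, SALK_094437C or SALK_146141. Against Col, at 2.85, 0.906, 1.84 and 1.36 CPM, the log2 change was 1.24 and not called.

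**Figure D4:**
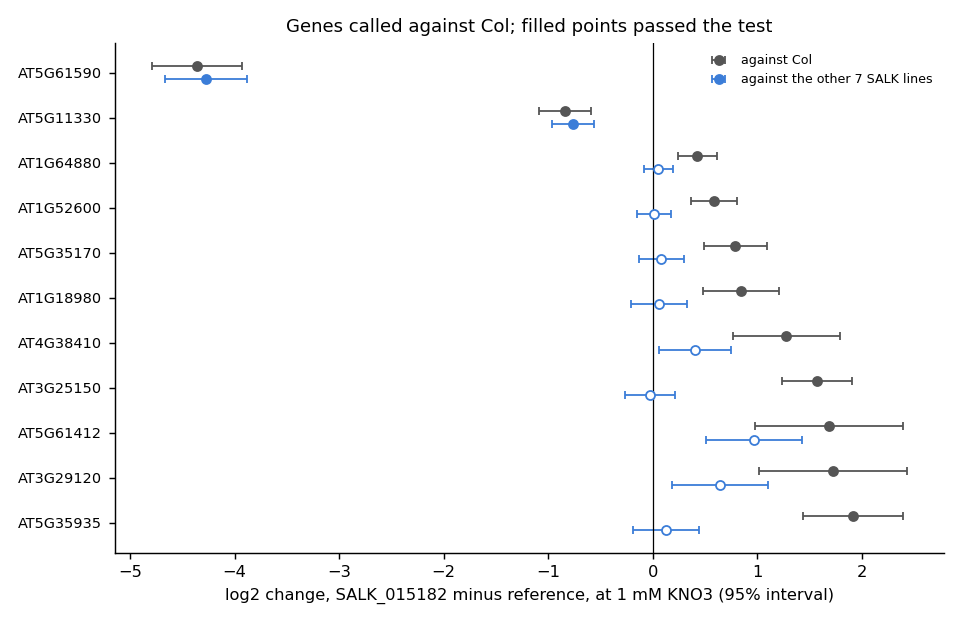
Log2 change of SALK_015182 at 1 mM against Col and against the other 7 SALK lines, with 95% intervals, for the 11 genes called against Col; filled points passed the test. AT5G61590 and AT5G11330 are filled in both, while AT3G25150 is at 1.57 against Col and at -0.02 against the other SALK lines.

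None of the 373 genes of 34 lists on wax, suberin, nitrogen, nutrients, hormones, stress and cell types was called against Col, of which 332 were tested. An unadjusted p under 0.05 was found for 28 of the 332 (8.43%), beside 7.69% of all genes tested. The median 95% interval of the 14996 genes at 5 CPM or more reached 0.32 log2 units, a 1.2-fold change, to each side of the estimate before any adjustment. A call needs more than that, since 88 genes at that level with an estimate of at least 1.5-fold against Col were not called, so that smaller changes in the lists may go without a call. The list members named from here on were chosen after their values were seen.

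Wax and very-long-chain fatty acid genes had estimates on both sides of 0. Of 25 listed, 19 were tested, 7 of them with an estimate above 0 and 12 below, and the median log2 change was -0.05 against Col and 0.08 against the other 7 SALK lines, beside -0.004 for all genes against Col. ABCG12, a transporter that exports wax, had 3.35, 3.35, 3.44 and 4.102 CPM in SALK_015182, against 7.81, 4.1996, 5.03 and 4.28 CPM in Col, without overlap (log2 change -0.55, edgeR adjusted p of 0.494). KCR1, the ketoacyl reductase of the elongase, had 82.9, 88.0, 82.4 and 92.7 CPM in SALK_015182, against 120, 96.3, 149 and 90.0 CPM in Col (log2 change -0.39, edgeR adjusted p of 0.514). CER3 was at 0.26 and MYB94, an activator of wax genes, at 0.76 with an interval of -0.26 to 1.77.

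The suberin genes had estimates mostly below 0 against Col, and none was called. All 15 were tested, 14 had an estimate below 0, and the median log2 change was -0.27 against Col, 0.06 against the other 7 SALK lines and 0.12 against Col at 10 mM. From run 1 alone the median against Col was -0.14, and within the "str" numbers 1 and 9 it was -0.16. Their summed level was 688 to 769 CPM in SALK_015182 and 795 to 905 CPM in Col, without overlap, against 542 to 861 CPM in the other SALK lines. No other of the 34 lists had sums without overlap between SALK_015182 and Col, and how often chance gives this over 34 lists was not tested. Of single genes, 2.01% had all 4 SALK_015182 libraries below all 4 Col libraries. FAR1, which makes fatty alcohols of suberin, had 45.3, 57.2, 44.3 and 46.9 CPM in SALK_015182, against 47.9, 88.7, 57.4 and 69.3 CPM in Col (log2 change -0.45, edgeR adjusted p of 0.448). GPAT7, an acyltransferase, was at -0.75 and FAR4 at -0.29. The 9 endodermis markers, among them the Casparian strip genes ESB1 and CASP2, had a summed level of 627 to 805 CPM in SALK_015182 and 683 to 895 CPM in Col. Their median log2 change was -0.13, with 3 estimates above 0 and 6 below. All 8 root hair and all 8 xylem markers had an estimate below 0, while phloem had 3 above and 1 below. Dividing cells had 5 above and 2 below, and all genes tested 9655 above and 10002 below. Against the other 7 SALK lines root hair had 3 above and 5 below, and all 8 xylem markers were below. Against Col at 10 mM, root hair and xylem each had 6 above and 2 below. The part of these markers in the suberin values was not tested. In bulk roots fewer cells of a type and less RNA per cell cannot be told apart.

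No gene of nitrogen uptake, transport or assimilation was called. Of the 12 genes of high-affinity uptake, which carry nitrate, ammonium and urea into the root when these are scarce, 3 had an estimate above 0 and 9 below, with a median log2 change of -0.22 against Col and -0.00 against the other SALK lines. Against Col at 10 mM the median was 0.25, with 8 estimates above 0 and 4 below. Without Col replicate 3 the median against Col at 1 mM was -0.12, and with the "str" number as a covariate it was -0.11. NRT2:1, the main high-affinity nitrate transporter, had 694, 670, 885 and 620 CPM in SALK_015182, against 785, 866, 1050 and 684 CPM in Col, and the groups overlapped (log2 change -0.24, edgeR adjusted p of 0.759). Its counts are uncertain where its near-identical copy shares reads. The urea transporter gene DUR3 had 115, 115, 125 and 134 CPM in SALK_015182, against 135, 147, 180 and 167 CPM in Col, without overlap (log2 change -0.36, edgeR adjusted p of 0.511). The ammonium transporter gene AMT1;3 had 92.5, 105, 90.4 and 109 CPM in SALK_015182, against 156, 109, 228 and 92.3 CPM in Col, so that 2 Col libraries carried the difference (log2 change -0.56, edgeR adjusted p of 0.615).

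Further along the pathway, the 12 genes of nitrate reduction and reductant supply had a median log2 change of -0.06, with the nitrate reductase gene NIA2 at -0.28. The 15 genes of ammonium assimilation had a median of -0.09 and the 10 other nitrate transport genes one of -0.07. Among the 18 nitrate-responsive regulators the median was 0.03, with NLP7, which starts the nitrate response, at -0.33 and BT1 at 0.48. For none of these lists was the smallest adjusted p of edgeR under 0.511.

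Aliphatic glucosinolate genes, which make the sulfur-rich defence compounds derived from methionine, had estimates above 0 against Col, and none was called. Of 14 listed 11 were tested and all 11 had an estimate above 0, with a median log2 change of 0.29 against Col, 0.07 against the other SALK lines and 0.10 against Col at 10 mM. Their summed level was 786 to 1022 CPM in SALK_015182 and 703 to 823 CPM in Col, which overlap, against 613 to 1176 CPM in the other SALK lines. GSTU20, a glutathione transferase of the pathway, had 92.0, 81.3, 72.7 and 83.9 CPM in SALK_015182, against 68.6, 53.9, 65.1 and 53.8 CPM in Col, without overlap (log2 change 0.45, edgeR adjusted p of 0.546). The 14 indole glucosinolate genes had a median of 0.04.

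Among other nutrient genes, the 10 tested of sulfate starvation had a median log2 change of -0.28 against Col and -0.14 against the other SALK lines. APR2, which reduces activated sulfate, had 60.6, 51.0, 63.8 and 76.7 CPM in SALK_015182, against 81.1, 80.9, 93.4 and 112 CPM in Col, without overlap (log2 change -0.55, edgeR adjusted p of 0.352). The phosphate transporter gene PHT1;4, with the smallest adjusted p of any list member, had 14.6, 12.3, 9.80 and 12.3 CPM in SALK_015182, against 17.7, 15.3, 22.9 and 16.6 CPM in Col (log2 change -0.56, edgeR adjusted p of 0.218). The medians were -0.04 for phosphate starvation and 0.13 for iron deficiency.

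With the "str" number as a covariate, 5 of the 332 tested list members were called against Col, beside 159 of all 19664 genes. None of the 5 was called against the other SALK lines. DUR3 was then at -0.44 (edgeR adjusted p of 0.0411), APR2 at -0.61 (0.0236) and GSTU20 at 0.62 (0.0233). The other 2 were low-oxygen genes: HB1, a hemoglobin, at 0.85 (0.0233) and the AP2/ERF gene ERF73 at 0.62 (0.0212), whose log2 changes without the covariate were 0.63 and 0.41. Of the 159 genes called against Col in that fit, 125 were within 0.2 log2 units of the other 7 SALK lines, with a median absolute change of 0.55 against Col and 0.09 against those lines. The 159 were picked by their change against Col, and the share of all genes within 0.2 was not worked out. Without the covariate, the median SE over all genes against those lines was 0.135.

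The medians of hormone and stress lists against Col were -0.10 for the 15 tested AP2/ERF genes, -0.08 for cytokinin response, -0.06 for auxin response, 0.18 for jasmonate response, -0.03 for abscisic acid and dehydration response, 0.14 for touch and wounding, 0.05 for low oxygen, -0.10 for flavonoids and -0.03 for the clock. Single libraries moved some of them: without SALK_015182 replicate 4 the median was -0.17 for jasmonate response and -0.19 for touch and wounding, and without Col replicate 3 it was -0.52 for abscisic acid and dehydration response. The 5 tested of 14 defence genes had a median of 0.13, and 8 members of that list were at 0 in SALK_015182. The 7 tested heat shock genes had a median of -1.23. Replicate 2 of Col decided that value: the small heat shock gene HSP17.6A had 0.717, 8.03, 3.18 and 2.11 CPM in SALK_015182, against 0.751, 62.1, 0.981 and 1.36 CPM in Col, and without that library the median of the list was 0.12.

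**Figure D5:**
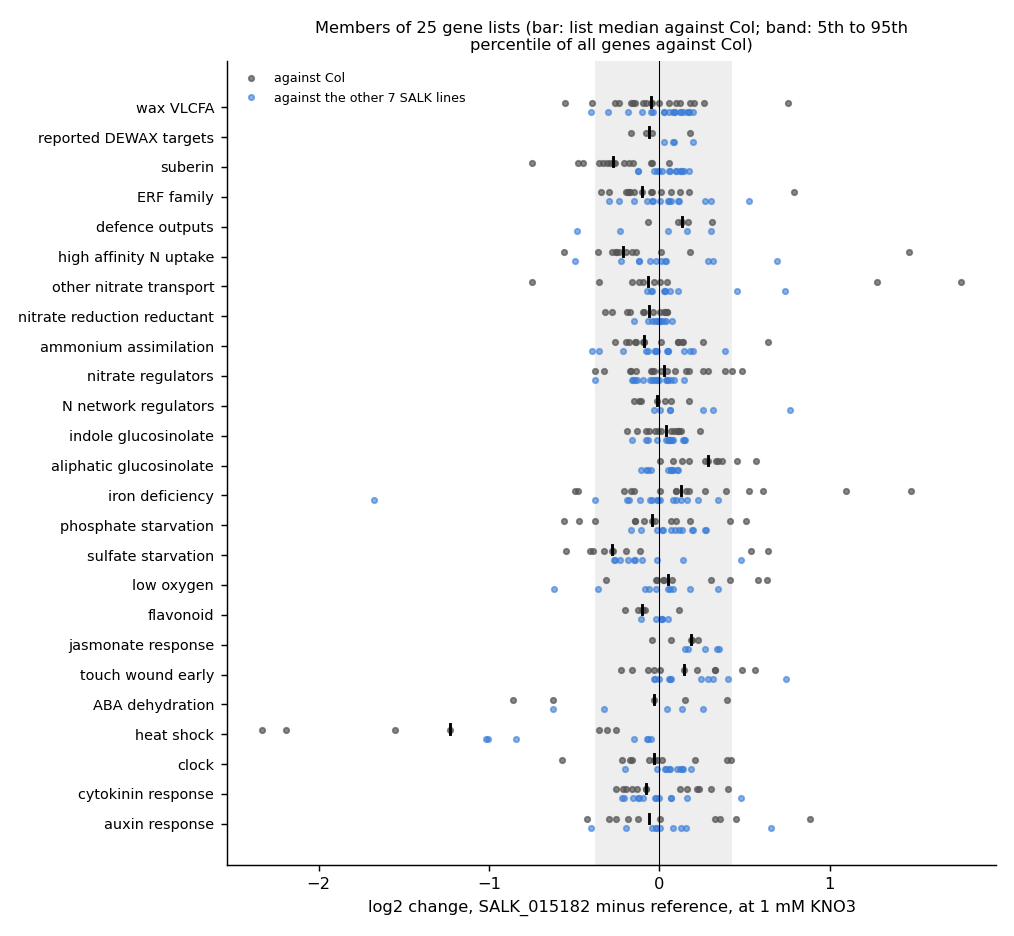
Log2 changes of the tested members of 25 gene lists in SALK_015182 at 1 mM, in grey against Col and in blue against the other 7 SALK lines, with a bar at the list's median against Col. The band spans the 5th to 95th percentile of single genes against Col and is no range for medians, which run from -1.23 for heat shock to 0.29 for aliphatic glucosinolates.

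Cell type markers were those of roots in both groups. Seed genes were at or near 0, with 3 of the 4 listed at 0 in SALK_015182 and 4 of 4 in Col, and the 18 photosynthetic genes summed to 101 to 153 CPM in SALK_015182 and 110 to 124 CPM in Col. The 8 root hair markers summed to 359 to 420 CPM in SALK_015182 and 369 to 557 CPM in Col, with a median log2 change of -0.18. The medians were -0.13 for xylem, 0.05 for phloem, 0.00 for root cap and 0.06 for dividing cells.

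QQS, a gene known to vary between Arabidopsis stocks, had 0.597, 0.624, 0.891 and 0.554 CPM in SALK_015182, against 1.35, 1.73, 1.72 and 1.253 CPM in Col, and the groups did not overlap. The log2 change at 1 mM was -1.19 (edgeR adjusted p of 0.352) and at 10 mM -2.07, where it was called. It was the only list member called at 10 mM. At 1 mM QQS was not called against the other 7 SALK lines, and its level was under 1 CPM in each SALK_015182 library.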

How the data were processed

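Each deposited file holds the authors' raw read counts by locus for a library in 1 run, without normalization. The submitters' processing notes name TAIR10 as the build and limma, HTSeq, SAMtools, Bowtie and FastQC as tools; their versions, roles and strand setting are not given in the sources used here. Overlapping genes, antisense genes and near-identical copies are therefore uncertain.

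Both runs of a library were added up. Of 33602 loci, the 279 of organelles were not used, as run 2 has no count for them, and 33323 nuclear loci remained. Names and neighbour order came from an annotation of TAIR10.1, which matched 32835 loci; no coordinates of it are printed.

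Tests used edgeR 4.0.16 in R 4.3.3: filterByExpr with a minimum count of 10, TMM factors, and a quasi-likelihood fit of all 26 groups, which share 1 estimate of spread, with Benjamini-Hochberg adjustment and a threshold of 0.05. Steps were tested on simulated data. Alternatives used DESeq2 1.42.0 and limma 3.58.1 (voom). No pair of libraries was a copy, with a chi-square per degree of freedom of at least 6.18 within SALK_015182 and 9.14 within Col. Tags were counted without molecular identifiers, so counting error is a lower limit.

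Named were AT5G61590 with 5 loci on each side, called genes of at least 5 CPM (up to 12 in each direction), up to 10 called against both sets, up to 4 called members of a list, the 4 genes with the smallest adjusted p for a called difference between concentrations, and the reported DEWAX targets. The genes, lists and tests were chosen with earlier results of these data known.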

Additional observations from a re-analysis of the deposited data

Results flagged for a closer look

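The fall of AT5G61590 against Col differed between the concentrations, by 2.06 log2 units on the test of the difference itself, with a log2 change of -4.36 at 1 mM and -6.42 at 10 mM. The change of AT5G49840 differed by 0.97 log2 units on the same test, with 0.58 at 1 mM and -0.39 at 10 mM.

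In 3 of 50 groups of 4 libraries examined over 25 named genes, 1 library stood far from the other 3 by Dixon's 95% limit on the gap to the nearest library over the group's range. Chance gives this in about 1 in 20 groups. All 3 were Col libraries at 1 mM: replicate 2 for CER1 at 1.56 CPM (gap 0.847 of the range), replicate 1 for AT5G61412 at 2.85 CPM (0.932) and replicate 4 for AT1G76510 at 16.6 CPM (0.861).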

How the results depend on the processing

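The calls of AT5G61590, AT3G25150 and AT5G35935 against Col held in all 19 alternatives, and that of AT5G11330 in 18, all but the libraries with the "str" numbers 1 and 9. Against the 11 genes called, 159 were called with that number as a covariate, 6 from the 8 libraries compared alone, 3 within the numbers 1 and 9, 4 from run 1 and 5 from run 2. Leaving out 1 library gave 6 to 18: 18 without Col replicate 1, 6 without Col replicate 3 or 4 and 7 without SALK_015182 replicate 1. Against the other 7 SALK lines, where 5 were called, run 2 gave 3, leaving out SALK_035980 gave 3 and all 11 other insertion lines gave 19. Of the differences between concentrations 2 were called, with 1 without a low-count filter, 9 with the covariate and 1 to 3 without 1 library. At 10 mM, where 26 were called, the covariate gave 55 and leaving out 1 library 12 to 42: 12 without Col replicate 2, 15 and 16 without SALK_015182 replicates 3 and 2, 17 without Col replicate 1 or 3, and 42 without Col replicate 4. Alternatives for the 10 mM calls, and those leaving out a 10 mM library, were chosen after the data were seen. List members called were 5 with the covariate and 0 without. Same-numbered replicates of SALK_015182 and Col deviated together, at r over 0.1, in 2 of 4 pairs (r of -0.0832 to 0.324). The highest r was that of the replicates 1, which share the "str" number 1. Differently numbered pairs had r of -0.302 to 0.299. The numbers were not taken to pair samples, which is no test of shared batches. A replicate block gave 26 genes against Col, 8 for the difference and 137 at 10 mM. Of 1015 gene estimates recomputed, 41 that passed the test under neither setting changed sign (-0.16 to 0.28), and 0 called values did. With 4 libraries a group, the 95% interval of a gene at 5 CPM or more reached 1.2-fold at the median before adjustment. The p-values rest on the spread between libraries of a group, estimated over all 26 groups. From the 8 libraries compared alone, AT5G61590 had an edgeR adjusted p of 1.88e-10.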

Other observations

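AT3G29410, chosen after its values were seen and next to the terpenoid synthase gene AT3G29430 in number, had 14.6, 21.2, 11.3 and 12.4 CPM in SALK_015182, against 7.51, 4.36, 6.75 and 3.97 CPM in Col and a range of 2.85 to 11.6 CPM with a median of 7.51 in the other 7 SALK lines. The SALK_015182 libraries were above all Col libraries, and 3 of the 4 were above 11.6 CPM. The log2 change was 1.44 against Col (edgeR adjusted p of 0.135) and 1.03 against the other SALK lines (0.154), and with the "str" number as a covariate it was 1.54 (0.000442) and 1.01 (0.000601). AT3G29430 in the same fit was 1.39 against Col (0.0176).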
